A study of Homo sapiens with 16 samples.

Results

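RT112 and SCaBER are human bladder cancer cell lines that stand for the luminal and the basal, squamous-like side of the disease. They were compared at baseline, in cells that had received only a control siRNA: 8 libraries, 4 per line, picked by their labels out of the 16 in the series. The other 8 libraries carried siRNAs against FOXA1 and are used below only for values placed beside the main ones. In each line, cells took up 10 nM of siControl.1 or of siControl.2, and each siRNA was used in experiment batch replicate 1 and again in replicate 2. RT112 was grown in RPMI and SCaBER in DMEM, both with 10% fetal bovine serum, so that line and medium cannot be told apart. Each subtype is 1 cell line here, and every difference below is a difference between these lines. The labels give no genotype other than the name of the line. Libraries were made from the 3′ ends of mRNA, so that a count is a read from the end of a transcript, with no term for gene length. Levels are given as counts per 1000000 counts of the library (CPM). Library values are always listed in the order siControl.1 replicate 1, siControl.1 replicate 2, siControl.2 replicate 1 and siControl.2 replicate 2.

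The urothelium that lines the bladder is built from basal cells, which hold on to the basement membrane and divide, and from luminal umbrella cells, which make the uroplakin plaques of the surface. GATA3, PPARG, FOXA1 and the grainyhead factors are known to keep urothelial cells luminal, and tumours that lose them express the keratins KRT5, KRT6A and KRT14 with genes of squamous epithelium, matrix adhesion and inflammation. Luminal papillary tumours often carry an altered FGFR3, whereas the EGF receptor is prominent in basal tumours.

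The lines stood far apart. RT112 libraries held 6622473 to 7604581 counts and SCaBER libraries 4528513 to 6416089, and genes of the mitochondrial genome took 18.0 to 21.2% of counts in RT112 and 10.3 to 11.4% in SCaBER. The first principal component carried 75.8% of the variance and separated the lines, and libraries of different lines lay 1.96 to 2.07 apart (root mean square log2 distance) against 0.744 to 1.01 for libraries of the same line. Of 12309 genes tested with edgeR's quasi-likelihood test, 5341 (43.4%) passed an adjusted p of 0.05, with 2612 (21.2%) higher in RT112 and 2729 (22.2%) higher in SCaBER. A difference shown to exceed 2-fold was called for 2166 genes (17.6%), 1025 (8.33%) in the RT112 direction and 1141 (9.27%) in the SCaBER direction. The median log2 difference over all genes tested was 0.02. The lines did not overlap in any library for 5136 genes (41.7%). These shares are the background for every count below, where "higher" means past the adjusted p of 0.05 and a log2 difference is RT112 minus SCaBER with its standard error. A pair of means "a against b CPM" has RT112 first, over 4 libraries each, and a mean of 0 marks a gene with no count in any library of that line. Against such a line a fold is a lower bound, with 3 counts per library as the floor, and where a line held only 1 to 3 counts in all the ratio is given with its 95% counting interval.

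**Figure D1:**
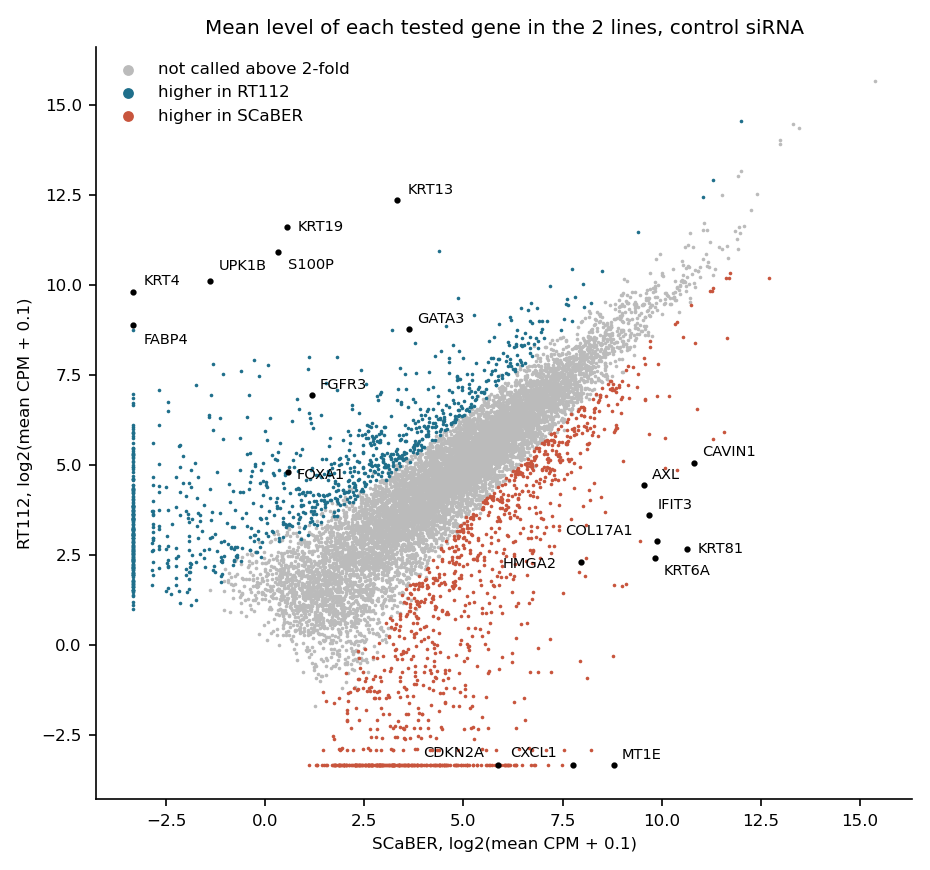
Mean level of each tested gene over 4 libraries per line, as log2(CPM + 0.1), with SCaBER on the x axis and RT112 on the y axis. Genes called above 2-fold are coloured by the higher line, and the rows of points at the left and lower edges are genes with 0 counts in the other line, such as KRT4 and FABP4 at the left and MT1E, CXCL1 and CDKN2A at the bottom.

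FOXA1, the forkhead pioneer factor that the rest of the series knocks down, was 35.0, 29.4, 18.2 and 28.4 CPM in RT112 and 0.499, 0.623, 2.43 and 1.99 CPM in SCaBER. The lowest RT112 library was above the highest SCaBER library. The means were 27.8 ± 6.98 and 1.39 ± 0.971 CPM (SD, n = 4), a ratio of 20.02, and in a two-sided exact permutation test over the 70 ways to split the 8 libraries p was 0.0286, the smallest this design allows. The RT112 libraries with siFOXA1 held 1.32, 3.24, 9.18 and 16.0 CPM, which checks the labels of the knock-down. Each of them was above the siControl.1 libraries of SCaBER, but the lowest, at 1.32 CPM, was below both siControl.2 libraries of SCaBER.

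The factors tied to luminal identity, counted here with FOXA1 among them, lay mostly on the same side: 14 of 15 listed factors passed the filter on low counts, 12 were higher in RT112 and none in SCaBER, against 21.2% and 22.2% of all genes tested, with a median log2 difference of 2.10 against 0.02. Where setting genes with 0 counts in a line to their bound at 3 counts per library changes a list's median, that second value follows the first. GATA3, a zinc finger factor of urothelial and breast luminal cells, was 437, 425, 432 and 467 CPM in RT112 and 11.5, 11.7, 7.79 and 18.1 CPM in SCaBER, a log2 difference of 5.19 ± 0.21 (edgeR, adjusted p = 1.49e-10). PPARG, the lipid-sensing nuclear receptor, was 77.8, 70.2, 78.6 and 85.7 CPM in RT112 and 12.5, 27.0, 22.6 and 29.1 CPM in SCaBER, a smaller difference of 1.79 ± 0.23, and neither gene overlapped between the lines. TBX2, a T-box repressor, was at 30.1, 53.8, 40.9 and 33.6 CPM in RT112 and had no count in any SCaBER library, at least 74.8-fold when 3 counts per library are taken as the floor. A count of 0 in these files does not show that a gene is silent: ALDOA, a glycolytic enzyme that every cell uses, had 0, 0, 0 and 1 counts in RT112 and 0, 0, 0 and 18 in SCaBER. GRHL1 (49.3 against 6.13 CPM, log2 3.03 ± 0.32), KLF5 (511 against 139 CPM, log2 1.90 ± 0.22), ELF3 (349 against 118 CPM, log2 1.58 ± 0.18) and TBX3 (71.6 against 26.0 CPM, log2 1.47 ± 0.28) were also higher in RT112. MECOM (40.2 against 38.8 CPM, log2 0.07 ± 0.18) and GRHL2 (73.8 against 61.1 CPM, log2 0.29 ± 0.16) did not pass the test. GRHL3 had at most 8 counts in any library and was not tested.

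Among 6 tested factors of the basal list, 4 were higher in SCaBER and none in RT112 (median -1.18). ZBED2 is among the 4, and its call was lost without any of 4 single libraries (edgeR, adjusted p from 0.0689 to 0.0954). HMGA2, a chromatin protein of embryonic and invasive cells, was 5.39, 3.62, 4.52 and 6.12 CPM in RT112 and 198, 328, 204 and 275 CPM in SCaBER, a log2 difference of -5.65 ± 0.23 with no overlap. BNC1, basonuclin, a factor of basal keratinocytes, was at 33.6, 16.5, 11.8 and 21.4 CPM in SCaBER with no count in RT112. TP63, whose short isoforms define basal squamous cells, did not separate the lines: its mean was 13.3 ± 5.34 against 16.1 ± 2.98 CPM, and the log2 difference of -0.26 ± 0.33 did not pass the test. ZBED2 overlapped between the lines, with 5.79, 7.70, 15.6 and 26.8 CPM in RT112 and 57.2, 66.7, 18.2 and 15.7 CPM in SCaBER: the siControl.1 libraries of SCaBER were the high ones, and in the siControl.2 libraries alone its log2 difference was 0.30. For ZBED2 the difference between the lines depended on the control siRNA (interaction 3.45 on the log2 scale, edgeR adjusted p = 0.0202). That held for 19 of the 12309 genes (0.154%), KRT19, KRT6A, AREG, PTGES, CAV1, MYL9, THBS1 and MYCL among them, and 1126 genes (9.15%) had an unadjusted interaction p under 0.05.

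The AP-1 family of FOS and JUN dimers split by member, with 4 of 11 tested higher in RT112 and 2 higher in SCaBER (median 0.21). FOSL1, a FOS-related partner of JUN, was 15.9, 14.6, 12.2 and 9.17 CPM in RT112 and 355, 604, 258 and 302 CPM in SCaBER, a log2 difference of -4.85 ± 0.28 with no overlap. FOS itself was the other way round, at 20.3 against 0.649 CPM. BATF, best known from blood cells, was also higher in RT112 (30.6 ± 11.3 against 0 CPM, at least 57.8-fold), and FOSL2 (64.9 against 33.3 CPM, log2 0.98 ± 0.21) by a smaller amount. JUN, JUNB and JUND did not pass the test, at 203 against 220.2 CPM, 127 against 111 CPM and 314 against 283 CPM.

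These factors bind short DNA words, and the promoters of the genes called above 2-fold were searched for 1 word per family on both strands. Promoters ran from 250 bases before to 50 after the start (RefSeq, GRCh38.p14) and were found for 9123 of the tested genes. The AP-1 word, TGANTCA, stood in 77 of 793 promoters of genes higher in SCaBER (9.71%) and in 45 of 748 of genes higher in RT112 (6.02%). It stood in 4.61% of the promoters of all genes tested and in 7.76% of all 27305 promoters in the table. The word of TEAD, the partner of YAP, is GGAATGT. It stood in 3.91% and 2.41% of the SCaBER and RT112 sets, against 2.08% of genes tested and 3.48% of all promoters. For forkhead factors the search used TGTTTAC, found in 2.27% and 2.41%, against 2.23% and 3.41%. For GATA factors it used AGATAAG, found in 1.77% and 0.668%, against 1.19% and 2.63%. For grainyhead factors it used ACCGGTT, found in 0.631% and 0.401%, against 0.943% and 0.787%. These are shares of letters in a window and not of bound sites.

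Promoters of 5 genes of this comparison are shown, with the searched words in capitals. SPRR1B, a cross-linked protein of the squamous envelope, LAMA3, a laminin chain of the basement membrane, and F3, tissue factor, were higher in SCaBER, and CLDN4, a tight junction claudin, and UPK1B, a uroplakin, were higher in RT112 (values below). The SPRR1B promoter (chr1:153030953-153031252, plus strand) holds AP-1 words whose first bases lie 141 and 111 bases before the start, a forkhead word at 238 and a TEAD word at 90. In LAMA3 (chr18:23872770-23873069, plus strand) the AP-1 words lie 125 and 69 bases before the start. In F3 (chr1:94541710-94542009, minus strand) they lie 223 and 210 before it. CLDN4 (chr7:73830746-73831045, plus strand), although higher in RT112, also holds AP-1 words, 242 and 161 bases before the start. UPK1B (chr3:119173348-119173647, plus strand) holds only a TEAD word, 187 bases before it.
SPRR1B: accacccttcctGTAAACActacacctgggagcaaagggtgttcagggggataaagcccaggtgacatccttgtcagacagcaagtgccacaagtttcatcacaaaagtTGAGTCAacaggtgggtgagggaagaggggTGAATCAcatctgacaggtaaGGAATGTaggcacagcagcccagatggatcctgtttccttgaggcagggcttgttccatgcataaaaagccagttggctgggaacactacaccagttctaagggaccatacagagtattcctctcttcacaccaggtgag
LAMA3: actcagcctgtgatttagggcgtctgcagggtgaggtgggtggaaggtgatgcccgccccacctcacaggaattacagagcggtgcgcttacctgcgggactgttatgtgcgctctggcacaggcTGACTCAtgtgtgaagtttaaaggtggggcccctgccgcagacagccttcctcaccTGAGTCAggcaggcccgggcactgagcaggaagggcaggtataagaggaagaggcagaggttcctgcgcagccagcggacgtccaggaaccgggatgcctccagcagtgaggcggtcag
F3: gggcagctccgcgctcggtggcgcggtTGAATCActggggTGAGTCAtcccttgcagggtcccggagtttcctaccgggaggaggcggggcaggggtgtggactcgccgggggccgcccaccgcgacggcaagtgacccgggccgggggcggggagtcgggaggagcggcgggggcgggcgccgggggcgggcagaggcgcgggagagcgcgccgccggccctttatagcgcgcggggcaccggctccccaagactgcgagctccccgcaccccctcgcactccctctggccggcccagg
CLDN4: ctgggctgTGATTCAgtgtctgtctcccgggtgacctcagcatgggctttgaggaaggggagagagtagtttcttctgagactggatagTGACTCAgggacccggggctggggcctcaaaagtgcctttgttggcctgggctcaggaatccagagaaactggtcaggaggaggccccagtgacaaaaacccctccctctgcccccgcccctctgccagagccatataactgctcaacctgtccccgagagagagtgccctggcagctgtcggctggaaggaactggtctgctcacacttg
UPK1B: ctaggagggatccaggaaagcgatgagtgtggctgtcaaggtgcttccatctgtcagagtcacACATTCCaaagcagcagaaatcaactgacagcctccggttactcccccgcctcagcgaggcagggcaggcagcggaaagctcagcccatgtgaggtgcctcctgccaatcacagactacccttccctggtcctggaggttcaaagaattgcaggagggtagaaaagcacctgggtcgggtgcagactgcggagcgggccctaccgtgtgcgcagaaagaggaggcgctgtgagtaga

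Genes of the luminal surface gave the widest gap of all lists on the RT112 side. Of 30 markers 23 were tested, 21 were higher in RT112 and 1 in SCaBER, and the median log2 difference was 6.94, 5.25 at the bounds. UPK1B, a tetraspanin of the uroplakin plaque, was 1035, 991, 1154 and 1278 CPM in RT112 and 0.166, 0.312, 0.649 and 0 CPM in SCaBER. UPK2, another uroplakin, was 491, 424, 238 and 190.0 CPM in RT112 and 14.1, 17.8, 15.4 and 7.29 CPM in SCaBER. UPK1A was found in RT112 only (20.2 ± 4.94 against 0 CPM, at least 38.2-fold). S100P, a calcium-binding protein of umbrella cells, was 2397, 2683, 1304 and 1382 CPM in RT112 and 1.83, 0.312, 1.78 and 0.662 CPM in SCaBER. The RT112 libraries of siControl.1 lay above those of siControl.2 for UPK2 and S100P, and every RT112 library was above every SCaBER library for all 4 genes.

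Other luminal genes were higher in RT112 too. Among them were the trefoil peptide TFF1 (59.9 ± 17.2 against 0 CPM, at least 113-fold), the mucus-associated AGR2 (114 against 1.65 CPM, log2 6.08 ± 0.24) and the stem cell antigen PSCA (187 against 0.374 CPM, log2 8.87 ± 0.73). HPGD, which breaks down prostaglandins, stood at 177 against 0.795 CPM. The glutathione peroxidase GPX2 (208 against 10.4 CPM, log2 4.33 ± 0.27) and the TEAD cofactor VGLL1 (108 against 0.0832 CPM, ratio 1240.2, interval 343 to 10246) belonged here as well. ERBB2 and ERBB3, receptors of the EGF family, were 45.3 against 15.4 CPM and 103 against 44.1 CPM, both higher in RT112. MUC1, a membrane mucin, was the exception, at 5.52, 7.85, 8.65 and 1.81 CPM in RT112 and 61.1, 50.8, 56.8 and 57.4 CPM in SCaBER. UPK3A and KRT20, which define the umbrella cell, were listed at 0 in all 8 libraries, which as for ALDOA may be a limit of the counting. TFF3 had at most 1 count in any library, and CD24 did not pass the test (107 against 140.4 CPM, log2 -0.37 ± 0.18).

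Keratins did not divide along simple luminal and basal lines. KRT19, the keratin of simple epithelia, was 3376, 3164, 3170.2 and 2831 CPM in RT112 and 2.00, 3.27, 0 and 0.221 CPM in SCaBER. KRT7, another, was 2114, 2417, 1715 and 1581 CPM in RT112 and 26.8, 13.4, 14.6 and 28.3 CPM in SCaBER. SCaBER was nearly without KRT19, and the few SCaBER counts were mostly in the siControl.1 libraries. KRT8 (523 against 326 CPM, log2 0.70 ± 0.14) and KRT18 (1283 against 838 CPM, log2 0.63 ± 0.13), the pair that every simple epithelial cell makes, differed by less than 2-fold. Of 5 tested simple keratins 4 were higher in RT112 and 1 in SCaBER (median 0.70). KRT80 was the one higher in SCaBER, with overlapping libraries (178 against 396 CPM, log2 -1.13 ± 0.35), and its call was lost without SCaBER siControl.1 replicate 1.

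All 12 tested keratins of basal and stratified epithelium differed, 7 higher in SCaBER and 5 in RT112 (median -1.19). KRT5, the keratin of the basal layer, was 109.8, 81.7, 146 and 131 CPM in RT112 and 655, 695, 533 and 421 CPM in SCaBER. Its partner KRT14 was 3.55, 3.17, 2.26 and 3.61 CPM in RT112 and 785, 448, 565 and 379 CPM in SCaBER, a wider gap, of -7.41 ± 0.28 on the log2 scale against -2.29 ± 0.19 for KRT5. KRT6A, induced in wounded and squamous epithelium, was 1.84, 1.36, 8.92 and 8.89 CPM in RT112 and 1299, 895, 884 and 581 CPM in SCaBER, with the siControl.2 libraries of RT112 above those of siControl.1. KRT6B (0.0329 against 135 CPM, ratio 4007, interval 719 to 158315), KRT17 (503 against 1329 CPM, log2 -1.39 ± 0.15) and the hair keratin KRT81 (6.25 against 1599.9 CPM, log2 -7.99 ± 0.32) were on the same side. RT112 in turn made the keratins of mucosal differentiation. KRT13 was 5992, 5378, 5278 and 4367 CPM in RT112 and 7.82, 1.56, 24.5 and 5.74 CPM in SCaBER. KRT4, its partner, was 859, 811, 1156 and 792 CPM with no count in SCaBER, at least 1710.0-fold. KRT10 (121 against 40.2 CPM, log2 1.60 ± 0.17), KRT16 (56.0 against 30.4 CPM, log2 0.90 ± 0.33) and KRT1 (5.84 ± 2.25 against 0 CPM, at least 11.0-fold) were also higher in RT112. KRT6A, KRT6B and KRT6C, and KRT14, KRT16 and KRT17, are near-copies of each other, the call for KRT16 was lost in 6 of 8 fits that left out a library, and counting may have split reads between them.

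**Figure D2:**
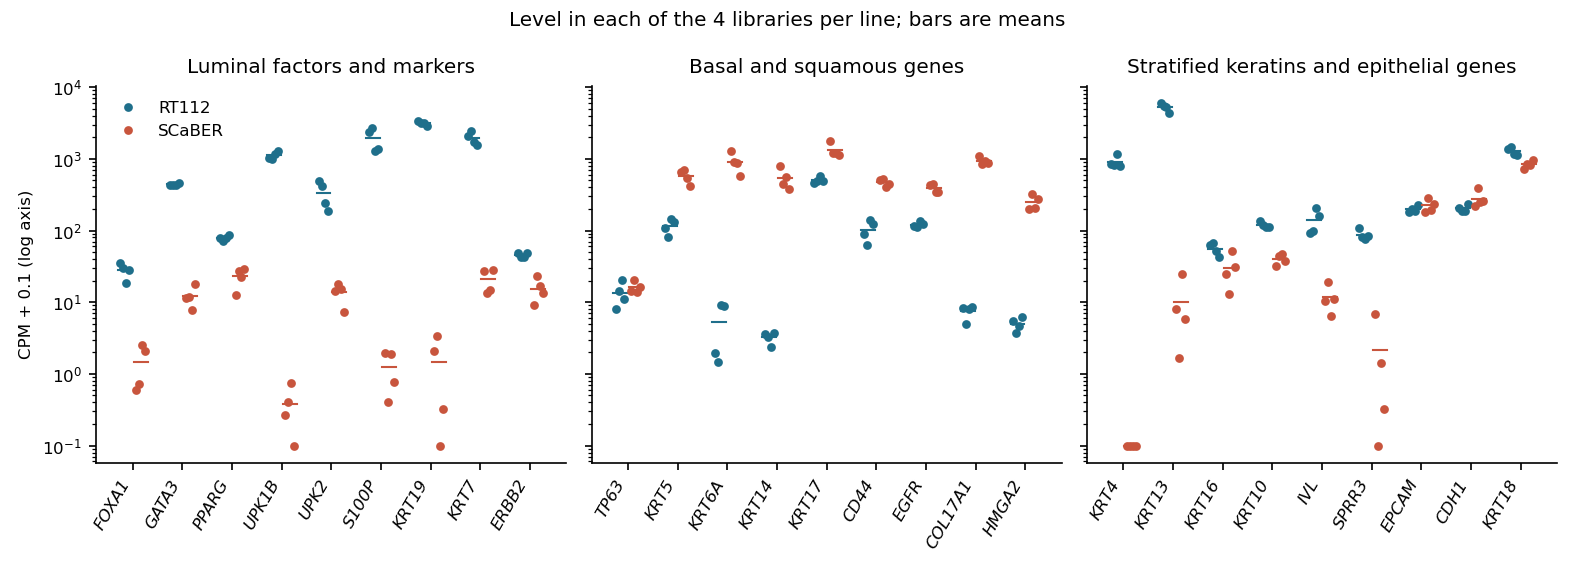
Level of 27 identity genes in each of the 4 libraries per line, as CPM + 0.1 on a log axis, with the mean as a bar. RT112 is above SCaBER in every library for the luminal genes and for KRT4 and KRT13, SCaBER is above RT112 for KRT6A, KRT14 and COL17A1, and the lines overlap for TP63 and EPCAM.

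Squamous differentiation genes went both ways as well, with 16 of 30 tested, 9 higher in SCaBER and 6 in RT112 (median -2.95, -2.91 at the bounds). The serpins SERPINB3 (0 against 11.9 ± 5.74 CPM, at least 28.7-fold), SERPINB4 (0 against 5.38 ± 1.71 CPM, at least 12.9-fold), SERPINB13 (0.495 against 118 CPM, log2 -7.77 ± 0.61) and SERPINB2 (0.690 against 24.3 CPM, log2 -5.08 ± 0.46) marked SCaBER. So did SPRR2A (0 against 3.48 ± 1.80 CPM, at least 8.36-fold) and SPRR1B, which was 0.263, 2.87, 1.06 and 3.89 CPM in RT112 and 89.9, 112, 78.7 and 38.6 CPM in SCaBER. IVL, involucrin, the scaffold of the cornified envelope, was higher in RT112 at 90.9, 99.96, 208 and 160.1 CPM in RT112 and 10.2, 18.9, 6.33 and 11.0 CPM in SCaBER. So were SPRR3 (87.7 against 2.04 CPM, log2 5.38 ± 0.64) and the paired calcium-binding proteins S100A8 (163 against 28.4 CPM, log2 2.55 ± 0.67) and S100A9 (662 against 87.3 CPM, log2 2.94 ± 0.28). IVL, SPRR3, SPRR1B, SPRR2A, S100A8 and S100A9 are neighbours on chromosome 1, yet fell on opposite sides. SERPINB3 and SERPINB4 are near-copies, as are SPRR2A and its family, and MT1E and IFITM3 below also have close copies, so that their counts are uncertain. CSTA did not pass the test (61.9 against 70.3 CPM, log2 -0.17 ± 0.33).

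Both lines expressed EPCAM, CDH1 and ESRP1, genes of epithelial cells. EPCAM was 197 ± 21.3 against 223 ± 49.2 CPM and CDH1, E-cadherin, was 205 ± 23.7 against 279.7 ± 78.2 CPM, and neither passed the test, CDH1 narrowly (edgeR, adjusted p = 0.0502). The splicing factor ESRP1 was 195 ± 12.9 against 192 ± 6.45 CPM and did not pass either. Of the 14 general epithelial genes 8 were higher in RT112, KRT19 among them, and 1 in SCaBER (median 0.59). Wider differences than that of CDH1 lay in other cadherins. CDH2, N-cadherin, was at 94.3, 82.8, 56.6 and 119 CPM in SCaBER with no count in RT112. CDH13 likewise had no count in RT112 (0 against 37.8 ± 6.95 CPM, at least 90.8-fold), and CDH3, P-cadherin, was 60.9 against 443 CPM. Desmosomes, which bolt stratified cells together, were richer in SCaBER. Of 18 tested desmosome and cadherin genes 12 were higher in SCaBER and 2 in RT112 (median -1.08). The desmosomal cadherins DSG3 (0 against 11.9 ± 4.31 CPM, at least 28.7-fold), DSC3 (17.9 against 70.1 CPM, log2 -1.95 ± 0.28) and DSC2 (29.4 against 96.4 CPM, log2 -1.70 ± 0.27) were higher in SCaBER, and so was the plakophilin PKP1 (68.0 against 238 CPM, log2 -1.80 ± 0.22). CTNNB1, beta-catenin, was higher in RT112 (194 against 96.2 CPM, log2 1.02 ± 0.15). Tight junction genes leaned to RT112, with 7 of 17 higher there and 3 in SCaBER (median 0.15). CLDN4 was 399, 399, 281 and 389.7 CPM in RT112 and 123, 151, 129 and 117 CPM in SCaBER. CXADR (253 against 51.98 CPM, log2 2.29 ± 0.15) and TJP3 (33.0 against 4.07 CPM, log2 3.00 ± 0.54) were on the same side. The scaffold TJP1 was the reverse (26.3 against 156 CPM, log2 -2.55 ± 0.18).

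Attachment to the basement membrane set SCaBER apart. Of 22 tested hemidesmosome, laminin and integrin genes 15 were higher in SCaBER and 4 in RT112 (median -1.41). COL17A1, the collagen that anchors the hemidesmosome, was 8.15, 4.83, 7.98 and 8.48 CPM in RT112 and 1101, 837, 934 and 878 CPM in SCaBER, a log2 difference of -6.97 ± 0.20 (edgeR, adjusted p = 5.72e-12). Laminin chains of the epithelial basement membrane were higher in SCaBER together. LAMA3 was 4.08, 3.47, 9.58 and 7.64 CPM in RT112 and 116, 148, 73.3 and 74.4 CPM in SCaBER. LAMB3 was 36.6, 40.3, 49.0 and 49.6 CPM in RT112 and 278, 427, 184 and 218 CPM in SCaBER. In SCaBER the siControl.1 libraries lay above the siControl.2 libraries for both chains, and neither chain overlapped between the lines. ITGA5, the fibronectin receptor chain (5.75 against 149 CPM, log2 -4.68 ± 0.27), ITGA2 (48.4 against 193 CPM, log2 -1.99 ± 0.24) and the hyaluronan receptor CD44 (103 against 468 CPM, log2 -2.17 ± 0.20) followed. ITGB4, the integrin chain of the hemidesmosome itself, did not pass the test (154 against 161 CPM, log2 -0.05 ± 0.17). LAMA5 went the other way (199 against 45.9 CPM, log2 2.13 ± 0.15).

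Of 23 tested mesenchymal genes 14 were higher in SCaBER and 4 in RT112 (median -2.23). MSN, moesin, a link between membrane and actin, was at 189, 189, 166 and 177 CPM in SCaBER and had no count in RT112. CAVIN1, which shapes caveolae, was 30.1, 19.5, 57.5 and 27.0 CPM in RT112 and 1908, 1549, 1859 and 1909 CPM in SCaBER. CAV1, their coat, was 120.3 against 946 CPM. AXL, a receptor kinase, was 6.71, 15.4, 28.6 and 36.1 CPM in RT112 and 827, 798, 624 and 738 CPM in SCaBER, and none of these genes overlapped. LOXL2 (0.840 against 117 CPM, log2 -7.13 ± 0.47), TPM2 (3.71 against 268 CPM, log2 -6.15 ± 0.33), MYL9 (19.8 against 289 CPM, log2 -3.86 ± 0.46), TWIST1 (0 against 9.26 ± 5.08 CPM, at least 22.3-fold) and COL7A1 (4.76 against 107 CPM, log2 -4.45 ± 0.58) were on the same side. The basement membrane collagens COL4A1 (28.0 against 0.331 CPM, log2 6.61 ± 0.73) and COL4A2 (61.2 against 0.896 CPM, log2 6.12 ± 0.52), COL12A1 (52.2 against 10.4 CPM, log2 2.33 ± 0.30) and fibronectin FN1 (91.8 against 42.1 CPM, log2 1.13 ± 0.27) were higher in RT112. VIM, vimentin, was not tested, with 0 counts in every RT112 library and at most 23 counts in a SCaBER library.

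YAP and its TEAD partners relay tension and cell spreading into transcription. Among the 18 targets on the list, all tested, 15 were higher in SCaBER and 1 in RT112, with a median of -2.36. CYR61, a matricellular protein, was 5.65, 5.13, 6.12 and 7.92 CPM in RT112 and 69.4, 248, 47.7 and 70.001 CPM in SCaBER, with siControl.1 replicate 2 the highest SCaBER library. CTGF (0.373 against 13.8 CPM, log2 -5.11 ± 0.70), AMOTL1 (24.5 against 186 CPM, log2 -2.91 ± 0.16), AJUBA (19.5 against 89.6 CPM, log2 -2.19 ± 0.35) and F3 (47.6 against 278 CPM, log2 -2.53 ± 0.21) were also higher in SCaBER. DLC1 was the member higher in RT112 (20.5 against 7.23 CPM, log2 1.52 ± 0.38). YAP1 itself was 50.2 against 171 CPM, a log2 difference of -1.75 ± 0.17.

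Of 21 tested proteases and inhibitors 10 were higher in SCaBER and 5 in RT112 (median -0.58). MMP1, a collagenase, was at 80.7, 13.7, 119.8 and 62.7 CPM in SCaBER with no count in RT112. MMP7 (0 against 17.8 ± 5.42 CPM, at least 42.8-fold), MMP3 (0 against 6.92 ± 4.39 CPM, at least 16.6-fold), MMP13 (0.894 against 35.0 CPM, log2 -5.26 ± 0.71) and MMP28 (0.0347 against 13.6 CPM, ratio 398, interval 70.9 to 15772) were on the same side. So were PLAU, the urokinase activator (4.72 against 79.1 CPM, log2 -4.05 ± 0.65), and ADAM8 (9.12 against 169 CPM, log2 -4.19 ± 0.25). The inhibitors TIMP1 (110.4 against 45.6 CPM, log2 1.29 ± 0.23), TIMP3 (811 against 223 CPM, log2 1.88 ± 0.24) and SPINT2 (371 against 172 CPM, log2 1.12 ± 0.24) were higher in RT112, as was PLAT (14.1 against 2.30 CPM, log2 2.65 ± 0.63).

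**Figure D3:**
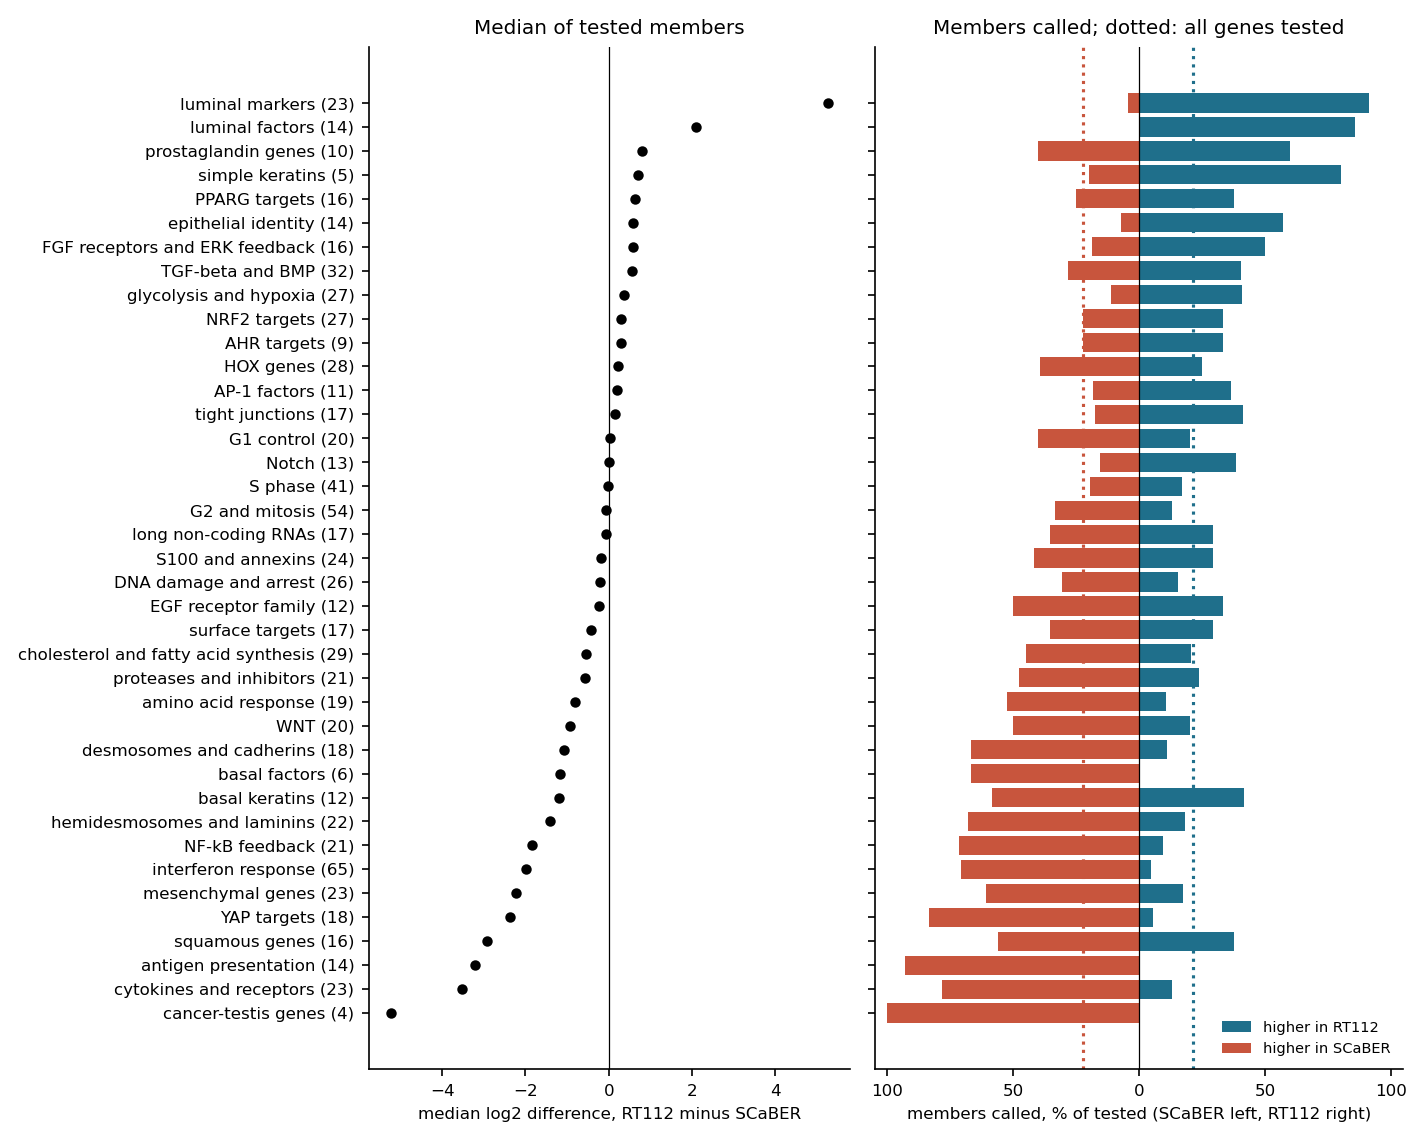
Gene lists with at least 4 tested members, with the number tested in parentheses: on the left the median log2 difference, RT112 minus SCaBER, with genes at 0 counts in a line at their bound, and on the right the percent of tested members higher in RT112 (right) or in SCaBER (left), with dotted lines at the shares over all genes tested (21.2% and 22.2%). Luminal markers and factors lie furthest to the RT112 side, and antigen presentation, cytokines and cancer-testis genes furthest to the SCaBER side.

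Growth factor systems divided by receptor. In the EGF family, EGFR was 115, 112, 134 and 123 CPM in RT112 and 425, 441, 347 and 346 CPM in SCaBER, a log2 difference of -1.68 ± 0.13 with no overlap. Of its ligands, EREG was 1.97, 0, 0 and 0 CPM in RT112 and 115, 171, 139.9 and 162 CPM in SCaBER. AREG was 11.2 against 208 CPM and HBEGF was 17.0 against 48.6 CPM, and all 3 were higher in SCaBER. EGF itself was not tested, with 5, 0, 17 and 27 counts in RT112 and 0 in every SCaBER library. BTC and EPGN had too few counts for a test as well. NRG1, the ligand of ERBB3, had counts in SCaBER only (0 against 40.3 ± 20.6 CPM, at least 97.0-fold). The list had 4 members higher in RT112 and 6 in SCaBER of 12 tested (median -0.23). In the FGF system FGFR3 was 80.0, 90.6, 187 and 139 CPM in RT112 and 2.66, 0.312, 2.11 and 3.53 CPM in SCaBER, a log2 difference of 5.90 ± 0.43. The ERK feedback genes DUSP6 (105 against 27.0 CPM, log2 1.98 ± 0.16), DUSP4 (33.4 against 18.2 CPM, log2 0.89 ± 0.30) and ETV4 (26.2 against 12.2 CPM, log2 1.11 ± 0.32) were higher in RT112 as well, the call for DUSP4 being lost without any of 5 single libraries. TACC3, a spindle protein, was 679, 611, 845 and 763 CPM in RT112 and 107, 68.3, 133 and 110.2 CPM in SCaBER. The lines did not overlap for FGFR3 or TACC3. RT112 is known to carry a fusion of FGFR3 to TACC3, and a 3′ library counts such a transcript at TACC3, but the share of these counts that came from the fusion was not tested. FGF2 had counts in SCaBER only (0 against 67.9 ± 22.4 CPM, at least 163-fold), and FGFBP1, which releases it from the matrix, was 40.3 against 245 CPM. Of 16 tested members of the FGF list 8 were higher in RT112 and 3 in SCaBER (median 0.59).

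In the TGF-beta and BMP list (32 tested, 13 higher in RT112, 9 in SCaBER, median 0.56), several ligands and receptors lay on opposite sides. The ligands TGFB2 (0.0347 against 44.1 CPM, ratio 1284, interval 230.0 to 50777), BMP2 (0.180 against 20.8 CPM, log2 -6.74 ± 0.66) and INHBA (14.6 against 259 CPM, log2 -4.12 ± 0.52) and the antagonist FST (0.645 against 247 CPM, log2 -8.57 ± 0.49) were higher in SCaBER. The receptors TGFBR2 (53.8 against 5.92 CPM, log2 3.18 ± 0.28) and TGFBR3 (43.6 ± 4.66 against 0 CPM, at least 82.4-fold) and the ligand BMP7 (9.29 against 0.0552 CPM, ratio 217, interval 38.7 to 8614) were higher in RT112. The BMP targets ID1 (516 against 119.9 CPM, log2 2.12 ± 0.18), ID2 (56.9 against 4.27 CPM, log2 3.76 ± 0.45) and ID3 (378 against 103 CPM, log2 1.89 ± 0.18) were also higher in RT112. WNT genes leaned to SCaBER (20 of 32 tested, 10 higher there and 4 in RT112, median -0.94). The inhibitors DKK1 (25.5 against 78.1 CPM, log2 -1.60 ± 0.27) and DKK3 (0.625 against 74.9 CPM, log2 -6.86 ± 0.67) and the factor TCF7L1 (3.63 against 67.3 CPM, log2 -4.19 ± 0.38) were higher in SCaBER. WNT5A (3.03 ± 1.09 against 0 CPM, at least 5.73-fold) and WNT7B (76.7 against 37.3 CPM, log2 1.05 ± 0.21) were higher in RT112. In the Notch list (13 tested, 5 higher in RT112, 2 in SCaBER, median 0.02), the receptor NOTCH3 (53.6 against 6.65 CPM, log2 2.99 ± 0.46) and the target genes HES1 (375 against 54.9 CPM, log2 2.78 ± 0.18) and HEY1 (54.2 against 0.541 CPM, log2 6.56 ± 0.66) were higher in RT112. The ligand JAG2 was higher in SCaBER (63.6 against 139 CPM, log2 -1.13 ± 0.23). NOTCH1, NOTCH2 and JAG1 did not pass the test, with log2 differences of 0.80 ± 0.32, -0.71 ± 0.29 and -0.62 ± 0.31.

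Metabolic genes differed gene by gene. FABP4, a fatty acid carrier and PPARG target, was 404, 472, 478 and 529.6 CPM in RT112 with no count in SCaBER, at least 890.2-fold. Its relative FABP5 was the reverse (3.05 against 54.2 CPM, log2 -4.13 ± 0.39). The PPARG list as a whole had 6 of 16 tested members higher in RT112 and 4 in SCaBER (median 0.63). ACSL5 was on the RT112 side (169 against 30.2 CPM, log2 2.50 ± 0.22). CPT1A (30.0 against 143 CPM, log2 -2.23 ± 0.27) and PLIN3 (153 against 435 CPM, log2 -1.49 ± 0.13) were on the other. Cholesterol uptake and synthesis leaned to SCaBER (13 of 29, against 6 in RT112, median -0.54). HMGCS1, an early enzyme of cholesterol synthesis, was 43.4, 45.6, 95.01 and 78.7 CPM in RT112 and 175, 225, 256 and 222 CPM in SCaBER, with no overlap. SCD (671 against 262 CPM, log2 1.36 ± 0.16) and FASN (459 against 235 CPM, log2 0.98 ± 0.20), which make fatty acids, were higher in RT112. The amino acid response leaned the same way as cholesterol genes, 10 of 19 against 2 (median -0.81). PSAT1 (11.2 against 85.3 CPM, log2 -2.92 ± 0.35), SLC7A5 (39.7 against 170.1 CPM, log2 -2.08 ± 0.21) and STC2 (8.29 against 68.3 CPM, log2 -3.03 ± 0.35) were higher in SCaBER. The glutamine carrier SLC1A5 was higher in RT112 (336 against 146 CPM, log2 1.21 ± 0.13).

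Glycolysis and hypoxia genes leaned to RT112 (11 of 27 higher, 3 higher in SCaBER, median 0.36). PFKL (277 against 64.01 CPM, log2 2.12 ± 0.15), HK2 (40.7 against 15.0 CPM, log2 1.45 ± 0.24) and EGLN3 (16.1 against 2.24 CPM, log2 2.83 ± 0.55) were among them. NRF2 targets had 9 members higher in RT112 and 6 in SCaBER of 27 (median 0.29). The aldo-keto reductases AKR1C1 (155 against 2.81 CPM, log2 5.79 ± 0.26), AKR1C2 (203 against 2.02 CPM, log2 6.67 ± 0.46) and AKR1C3 (68.2 against 6.02 CPM, log2 3.52 ± 0.43), near-copies of each other, marked RT112. GCLM (93.8 against 312 CPM, log2 -1.72 ± 0.14), the cystine carrier SLC7A11 (8.09 against 29.4 CPM, log2 -1.85 ± 0.30) and the ferritin chain FTH1 (922 against 2475 CPM, log2 -1.41 ± 0.15) were higher in SCaBER. NQO1 did not pass the test (189.6 against 158 CPM, log2 0.29 ± 0.24). Of 9 tested genes of the aryl hydrocarbon receptor list 3 were higher in RT112, ALDH3A1 (30.9 against 1.55 CPM, log2 4.34 ± 0.62) among them, and 2 in SCaBER (median 0.29). Of 15 prostaglandin genes 10 were tested and all of these differed, 6 higher in RT112 and 4 in SCaBER (median 0.79). PTGES, which makes prostaglandin E, was 515, 511, 508 and 526 CPM in RT112 and 61.7, 50.3, 164 and 132 CPM in SCaBER. PTGS2, the inducible cyclooxygenase, was 23.9 against 2.90 CPM. The constitutive cyclooxygenase PTGS1 (0.104 against 48.8 CPM, ratio 459, interval 157 to 2229) and PTGR1, which inactivates prostaglandins and leukotrienes (0 against 212 ± 24.2 CPM, at least 509.8-fold), were SCaBER genes.

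Interferon response genes were a SCaBER signature. Of 70 genes on the list 65 were tested, 46 were higher in SCaBER and 3 in RT112 (GBP2, OAS1 and LGALS3BP, the last lost without any of 3 single libraries), 35 and 2 of them above 2-fold. The median log2 difference was -1.997. IFIT3, an antiviral RNA-binding protein, was 12.0, 10.9, 10.8 and 15.0 CPM in RT112 and 1003, 999.8, 637 and 632 CPM in SCaBER. IFITM3, which blocks viral entry, was 27.2, 25.5, 27.5 and 35.7 CPM in RT112 and 1710.1, 1021, 1324 and 1276 CPM in SCaBER. Both were higher in every SCaBER library, and IFIT3 more so with siControl.1. ISG15 was 86.8 against 501 CPM, MX1 was 5.64 against 76.8 CPM and OASL had few counts in RT112 (0.104 against 80.5 CPM, ratio 786, interval 269 to 3815). IFI27 had no count in RT112 (0 against 65.3 ± 36.4 CPM, at least 157-fold). Upstream, IRF1, an inducer of these genes, was 48.1 against 285 CPM. The RNA sensors DDX58 (6.22 against 64.6 CPM, log2 -3.36 ± 0.33) and IFIH1 (5.47 against 67.6 CPM, log2 -3.61 ± 0.46) were also higher in SCaBER. STAT2 (13.4 against 21.4 CPM, log2 -0.65 ± 0.33) and IRF9 (1.16 against 4.09 CPM, log2 -1.80 ± 0.71) did not pass the test. The exceptions were the guanylate-binding protein GBP2 (143 against 28.99 CPM, log2 2.32 ± 0.16) and OAS1 (68.2 against 19.6 CPM, log2 1.81 ± 0.33), which were higher in RT112. The receptor chains IFNAR1 (142 against 66.1 CPM, log2 1.12 ± 0.18) and IFNAR2 (82.3 against 29.02 CPM, log2 1.52 ± 0.19) were also higher in RT112.

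Antigen presentation was on the same side. Of 14 tested genes 13 were higher in SCaBER and none in RT112 (median -3.21). CD74, the invariant chain of class II molecules, was at 133, 139, 133 and 159 CPM in SCaBER with no count in RT112. HLA-DRB1 (0 against 19.3 ± 3.51 CPM, at least 46.3-fold) and CIITA, the class II activator (0.0347 against 8.88 CPM, ratio 262, interval 46.4 to 10382), were likewise near or at 0 in RT112. For class I, NLRC5, its activator, was 0.872 against 34.8 CPM. PSMB9, an immunoproteasome subunit, was 9.86 against 105 CPM. B2M was 10.1, 4.98, 10.6 and 25.3 CPM in RT112 and 34.3, 77.1, 35.7 and 23.4 CPM in SCaBER. The highest RT112 library for B2M was above the lowest SCaBER library. Of the 25 listed genes 11 did not pass the filter on low counts. HLA genes vary between people and share reads, so their counts are uncertain. On a list of surface targets, NECTIN4 was higher in RT112 (31.3 against 14.8 CPM, log2 1.09 ± 0.32), though not without RT112 siControl.1 replicate 1. CD47 (68.1 against 263 CPM, log2 -1.94 ± 0.19) and PDCD1LG2 (0.0329 against 9.32 CPM, ratio 284, interval 50.5 to 11272) were higher in SCaBER. CD274 did not pass the test (2.83 against 3.93 CPM, log2 -0.44 ± 0.68). Of the 17 tested on that list 5 were higher in RT112 and 6 in SCaBER (median -0.44).

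Cytokines and their receptors were again mostly SCaBER genes, 18 of 23 tested, with 3 in RT112 and a median of -3.53. CXCL1, which draws neutrophils, was at 153, 343, 159.8 and 212 CPM in SCaBER with no count in RT112. IL7R was 0.263, 1.06, 0 and 0.417 CPM in RT112 and 343, 322, 231 and 208 CPM in SCaBER, with no overlap. CXCL8 (0.402 against 18.6 CPM, log2 -5.42 ± 0.68), IL1A (1.26 against 42.5 CPM, log2 -5.04 ± 0.62), and IL1B (4.54 against 31.9 CPM, log2 -2.79 ± 0.54) were higher in SCaBER. So were IL6 (0 against 4.81 ± 2.87 CPM, at least 11.6-fold) and the receptor chain IL6ST (14.7 against 171 CPM, log2 -3.53 ± 0.24). CXCL16 (16.1 against 2.67 CPM, log2 2.63 ± 0.66) and TNFRSF1A (121 against 74.9 CPM, log2 0.70 ± 0.16) were higher in RT112. The NF-kB list, all tested, had 15 of 21 genes higher in SCaBER and 2 in RT112 (median -1.84). TNFAIP3, the A20 brake of the pathway, was 6.31, 7.55, 5.86 and 6.95 CPM in RT112 and 156, 142, 130.5 and 146 CPM in SCaBER. BIRC3, an inhibitor of apoptosis, was 3.42, 4.68, 2.79 and 1.53 CPM in RT112 and 413, 587, 340.4 and 437 CPM in SCaBER, and neither gene overlapped between the lines. ICAM1 (0 against 23.3 ± 6.96 CPM, at least 55.9-fold), RELB (2.43 against 54.2 CPM, log2 -4.45 ± 0.48) and NFKBIA (124 against 348 CPM, log2 -1.47 ± 0.16) followed. REL was higher in RT112 (47.4 against 26.1 CPM, log2 0.88 ± 0.25).

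Markers of other cell types were read beside these genes. Most leukocyte markers were at 0: of 14 leukocyte markers only LAPTM5 passed the filter and was higher in SCaBER (2.40 against 8.90 CPM, log2 -1.86 ± 0.60), but not without SCaBER siControl.2 replicate 2. Their summed level was 0.417 to 4.08 CPM in RT112 and 7.32 to 14.8 CPM in SCaBER, with 11 and 9 of the 14 at 0 in every library of the line. Of 10 fibroblast markers LUM, lumican, was higher in RT112 (97.6 against 12.1 CPM, log2 3.01 ± 0.43), and COL1A1 did not pass the test. The sums were 85.2 to 137 CPM in RT112 and 11.2 to 38.8 CPM in SCaBER, with 7 and 5 of the 10 at 0. Their part in the mesenchymal and inflammatory results was not tested. Of 10 endothelial and muscle markers PECAM1 was higher in RT112 (4.32 against 0.0552 CPM, ratio 98.3, interval 17.3 to 3912), and ACTA2 did not pass the test. The sums were 4.17 to 6.95 and 1.71 to 9.5 CPM.

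Proliferation genes did not separate the lines as blocks. In S phase 7 of 41 tested genes were higher in RT112 and 8 in SCaBER (median -0.02). In G2 and mitosis they were 7 and 18 of 54 (median -0.07), against 21.2% and 22.2% of all genes tested. The calls for G2 and mitosis thus leaned to SCaBER, while the median stayed near that of all genes. MKI67 was 391 ± 54.0 against 350.2 ± 58.8 CPM and did not pass the test. RRM2 (339 against 98.7 CPM, log2 1.79 ± 0.16) and ANLN (131 against 457 CPM, log2 -1.78 ± 0.15) were the members, other than TACC3, furthest apart on the RT112 and SCaBER sides among those with over 50 CPM in both lines. Control of G1 differed more in kind. CDKN2A, which encodes the p16 inhibitor, was 49.6, 67.3, 60.2 and 55.6 CPM in SCaBER with no count in RT112, and CDKN2B (0 against 14.3 ± 1.28 CPM, at least 34.4-fold) was the same. CCND1 (225 against 761 CPM, log2 -1.74 ± 0.16) and its partner CDK6 (59.5 against 253 CPM, log2 -2.07 ± 0.22) were higher in SCaBER. CCNE1 (19.4 against 4.22 CPM, log2 2.21 ± 0.36) and MYCL (43.9 against 1.79 CPM, log2 4.69 ± 0.66) were higher in RT112. For MYCL the siControl.1 libraries of SCaBER were at or near 0, and the line difference depended on the siRNA (interaction -5.71, edgeR adjusted p = 0.0299). The list counts were 4 higher in RT112 and 8 in SCaBER of 20 (median 0.02). Of 26 tested genes of DNA damage and growth arrest 4 were higher in RT112, BTG2 (57.9 against 5.60 CPM, log2 3.36 ± 0.37) among them. In SCaBER 8 were higher, GADD45A (11.8 against 150.1 CPM, log2 -3.65 ± 0.20) among them, and the median was -0.21. MDM2 did not pass the test (58.7 against 43.9 CPM, log2 0.43 ± 0.17).

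HOX genes, which record position along the body axis, formed on and off patterns. Of 35 genes 28 were tested, 7 higher in RT112 and 11 in SCaBER (median 0.23). HOXA9 was 44.4, 60.2, 62.3 and 56.5 CPM and HOXA10 was 70.9, 87.1, 49.3 and 55.2 CPM in SCaBER, both with no count in RT112. HOXA13, at the end of the same cluster, was the reverse (5.11 ± 2.15 against 0 CPM, at least 9.66-fold) and HOXA3 did not differ past the test (17.3 against 16.2 CPM, log2 0.12 ± 0.28). HOXD9 (11.9 ± 3.07 against 0 CPM, at least 22.5-fold), HOXD11 (10.0 ± 5.46 against 0 CPM, at least 18.9-fold) and HOXD8 (5.06 ± 1.72 against 0 CPM, at least 9.56-fold) were found in RT112 only. HOXB5 (23.6 against 3.26 CPM, log2 2.85 ± 0.45) and HOXB8 (15.6 against 0.442 CPM, log2 5.33 ± 0.90) marked RT112. HOXC9 (4.22 against 16.9 CPM, log2 -1.98 ± 0.43) and HOXC10 (2.19 against 16.0 CPM, log2 -2.85 ± 0.58) marked SCaBER.

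Cancer-testis genes, silent in most adult tissue, mostly had few or no counts: 4 of 26 passed the filter (median -9.66, -5.23 at the bounds). MAGEA4 (0 against 50.2 ± 18.4 CPM, at least 121-fold), MAGEA11 (0 against 27.0 ± 3.25 CPM, at least 64.9-fold), MAGEA3 (0 against 9.05 ± 7.38 CPM, at least 21.8-fold) and MAGEA6 (0 against 6.98 ± 5.11 CPM, at least 16.8-fold) were found in SCaBER only, with MAGEA3 and MAGEA6 near-copies. Of 17 tested long non-coding RNAs 5 were higher in RT112, such as H19 (20.9 against 0.0779 CPM, ratio 240.5, interval 66.3 to 1990.1) and TINCR (84.0 against 2.56 CPM, log2 5.03 ± 0.35). In SCaBER 6 were higher, such as MIR205HG (313 against 835 CPM, log2 -1.41 ± 0.19). The bladder cancer transcript UCA1 did not pass the test (406 against 428 CPM, log2 -0.06 ± 0.17), and the list's median was -0.08. S100 and annexin genes split 7 to 10 of 24 between RT112 and SCaBER (median -0.18). S100A4 (185 against 11.4 CPM, log2 4.05 ± 0.27) and S100A6 (2871 against 674 CPM, log2 2.11 ± 0.21) were higher in RT112. S100A2 (122 against 1157 CPM, log2 -3.24 ± 0.21), ANXA3 (2.14 against 82.5 CPM, log2 -5.27 ± 0.60) and ANXA1 (55.9 against 159.7 CPM, log2 -1.50 ± 0.18) were higher in SCaBER.

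Over all genes, those furthest apart had counts in 1 line and few or none in the other. At 20 CPM or more on average in a line and at most 3 counts in each library of the other, 65 genes marked RT112 and 92 marked SCaBER, of which 45 and 69 had no count at all in the other line. The RT112 set was led by KRT4, FABP4, PEG10, an imprinted gene of retrotransposon origin (435 ± 84.7 against 0 CPM, at least 823-fold), NDRG2 (149 against 0.198 CPM, log2 9.33 ± 0.47) and MLPH, melanophilin, a motor adaptor (135 against 0.0552 CPM, ratio 3119, interval 559 to 123215). Others far apart were METTL7A (126 ± 20.7 against 0 CPM, at least 239-fold), SVIP (118 ± 18.9 against 0 CPM, at least 222-fold), the phospholipase PLA2G2F (105 ± 13.6 against 0 CPM, at least 199-fold) and the elongation factor EEF1A2 (103 ± 41.1 against 0 CPM, at least 194-fold). The kinase NME4 (69.0 ± 15.3 against 0 CPM, at least 130.4-fold) and the glutamate carrier SLC1A6 (66.4 ± 38.6 against 0 CPM, at least 126-fold) were also without a count in SCaBER, and SLC1A6 was 53.4, 20.99, 112 and 79.5 CPM in the RT112 libraries. The SCaBER set was led by MT1E, a metallothionein that binds zinc and copper, at 456, 676, 306 and 333 CPM with no count in RT112. MAP1B, a microtubule-associated protein (0.0329 against 299.6 CPM, ratio 8730.0, interval 1566 to 344863), CXCL1, PTGR1 and the tubulin TUBB6 (0.0333 against 184 CPM, ratio 5290.0, interval 949 to 208994) came next. IGFBP7 (0 against 112 ± 18.4 CPM, at least 269-fold), CCBE1 (0 against 110.4 ± 24.9 CPM, at least 266-fold) and RAB34 (0 against 105 ± 18.3 CPM, at least 252-fold) were also without a count in RT112.

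Differences also followed position on chromosomes. Symbols of 11284 tested genes were matched to RefSeq positions (GRCh38.p14). Chromosome 21 stood out, with a median log2 difference of 1.44 over 110 tested genes, 84 of them (76.4%) higher in RT112 and 6 in SCaBER. The median of every other chromosome lay between -0.33 and 0.33. The genes higher in RT112 there include some that the lists above do not hold, such as the protease inhibitor CSTB (1399 against 212 CPM, log2 2.74 ± 0.20), the ubiquitin ligase TTC3 (496 against 106 CPM, log2 2.23 ± 0.15) and the nucleosome-binding HMGN1 (538 against 184 CPM, log2 1.56 ± 0.14), and IFNAR1, IFNAR2, PFKL, CXADR and TFF1 also lie there. The 6 on the other side were ADAMTS1, ETS2, MX1, PWP2, ITGB2 and its antisense transcript. In the siFOXA1 libraries the chromosome 21 median was 1.37. DNA copy number was not measured.

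**Figure D4:**
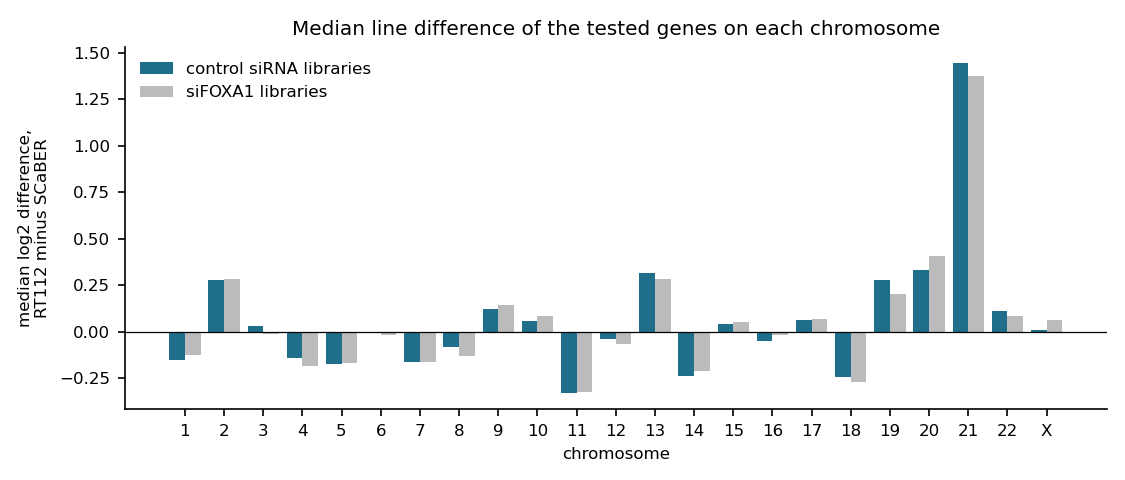
Median log2 difference, RT112 minus SCaBER, of the tested genes on each chromosome, in the control siRNA libraries and in the siFOXA1 libraries. Chromosome 21 is at 1.44 and 1.37, and the other chromosomes lie within 0.33 of 0 in the control libraries.

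Runs of neighbours differed together too. Over 10962 windows of 15 consecutive tested genes, the median furthest to the SCaBER side was -4.21 at chr4:73740569-76036070, which holds CXCL8, CXCL1, EREG and AREG and 12 genes higher in SCaBER. The next was -3.45 at chr11:96390013-103479863, where all 15 genes were higher in SCaBER, among them YAP1, BIRC2 (56.8 against 303 CPM, log2 -2.41 ± 0.17), BIRC3, MMP7 and MMP1. It was followed by chr1:92473043-94541759 with -2.47 and 14 of 15 genes higher in SCaBER. It holds F3 and GCLM, but also genes with general cell functions, such as the ribosomal protein RPL5 (1184 against 6636 CPM, log2 -2.47 ± 0.12), DNTTIP2 (113 against 761 CPM, log2 -2.74 ± 0.13) and DR1 (37.4 against 172 CPM, log2 -2.19 ± 0.18). On the RT112 side the windows were 2.98 at chr19:50505998-52028379, with 12 genes higher in RT112, the kallikrein KLK6 (20.8 against 4.60 CPM, log2 2.18 ± 0.44) among them, and 1 higher in SCaBER, the kallikrein KLK10 (4.92 against 61.9 CPM, log2 -3.64 ± 0.34). They were 2.94 at chr1:152106317-153545806, the S100 and SPRR genes, and 2.70 at chr21:41885112-43776308. On chromosome 9, MTAP (0 against 11.0 ± 2.67 CPM, at least 26.4-fold), CDKN2A, CDKN2B and the pseudogene UBA52P6 had no count in any RT112 library. PSIP1 (0 against 71.8 ± 5.45 CPM, at least 173-fold), CNTLN (0 against 27.7 ± 5.53 CPM, at least 66.5-fold) and HACD4 (0 against 7.26 ± 1.99 CPM, at least 17.5-fold) had none either. Genes between them such as RRAGA (103 against 52.9 CPM, log2 0.96 ± 0.20), MLLT3 (31.4 against 6.91 CPM, log2 2.20 ± 0.37) and KLHL9 (38.1 against 8.77 CPM, log2 2.12 ± 0.32) were higher in RT112.

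**Figure D5:**
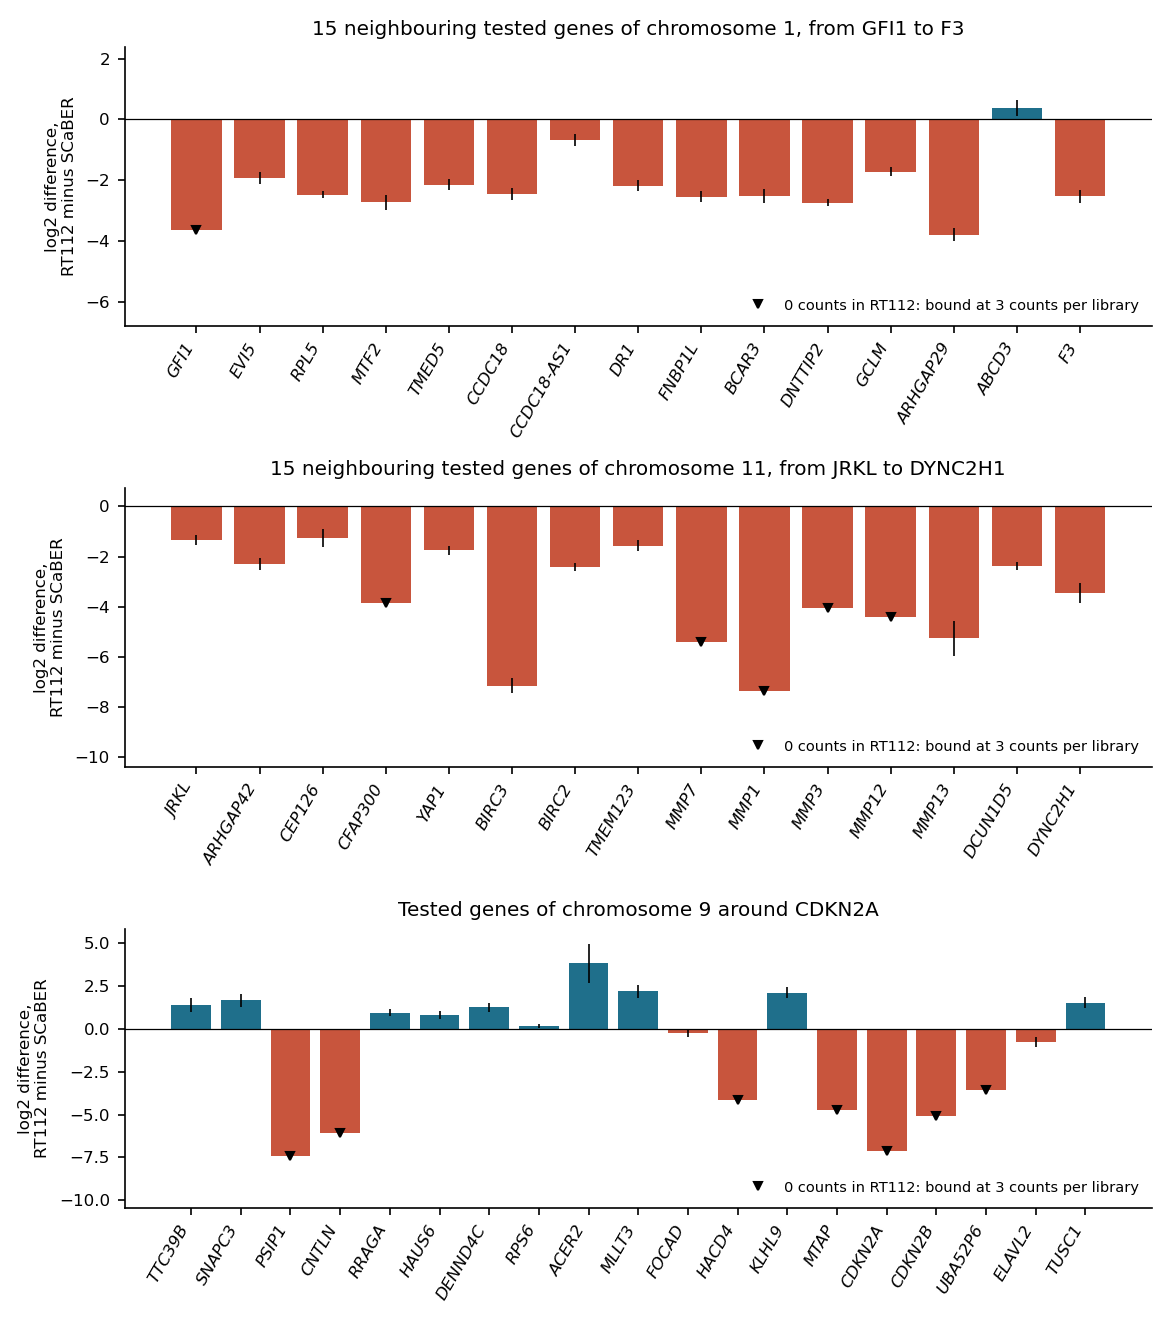
Log2 difference, RT112 minus SCaBER, of tested neighbours in chromosome order (bars, with the standard error) in 3 regions, with triangles where RT112 had 0 counts and the bar is the bound at 3 counts per library. In the chromosome 1 run 14 of 15 genes and in the chromosome 11 run all 15 are higher in SCaBER. On chromosome 9 genes without a count in RT112 lie among genes higher in it and genes that did not pass the test.

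The same contrast in the 8 siFOXA1 libraries, which share no library with the main comparison, called 3368 of 12104 genes tested (27.8%). Of 11664 genes tested in both, 5072 were called in the control libraries and 3268 in the siFOXA1 libraries, and 2907 in both. The shared calls were 57.3% of the first and 88.9% of the second, and 2906 had the same direction. List medians are over the members tested in each contrast, which differ (23 and 19 luminal markers). Some lay near each other, with the control libraries first: antigen presentation -3.21 and -3.38, NF-kB genes -1.84 and -1.91, interferon -1.997 and -1.91. Others lay apart. Luminal markers were at 6.94 and 5.61. The mesenchymal list was at -2.23 and -0.90, squamous genes at -2.95 and -1.05 and the Notch list at 0.02 and 1.07. The sign differed for several lists, among them TGF-beta and BMP genes, at 0.56 and -0.18 (32 tested in each contrast). It also differed for tight junctions, at 0.15 and -0.12 (17 and 15 tested), and HOX genes, at 0.23 and -0.71 (28 and 20 tested). Single genes moved further: IFI27 went from no count in RT112 to a log2 difference of -2.70 (edgeR, adjusted p = 0.186, not called), and KRT81 from -7.99 ± 0.32 to -3.77 (adjusted p = 0.0587). COL17A1, KRT14 and GATA3 stood at -7.91, -7.90 and 4.73. No test compared the 2 contrasts, so these are values placed beside each other.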

How the data were processed

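The cells and libraries are those described above, with each library mapped to line, siRNA and replicate by its label. Libraries were QuantSeq 3′ mRNA libraries. The deposited raw counts per gene were made by the authors with TrimGalore 0.6.2 (minimum quality 20, minimum length 10), STAR 2.6.1a, hg38 and GENCODE 29, per the deposited pipeline settings, while the study's methods name hg19. Strand was detected automatically. The authors also deposited TPM values from the same counting, which divide by gene length although 3′ counts do not grow with it, and these served only as an alternative. Gene symbols come from the deposited tables and positions and promoters from RefSeq tables of GRCh38.p14. GRCh37 sequence was not used.

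Counts entered edgeR 4.0.16 (R 4.3.3, limma 3.58.1) with TMM scaling, filterByExpr and the quasi-likelihood test, cell line as the only term and Benjamini-Hochberg adjustment over 12309 genes of 58721 listed. The call above 2-fold used glmTreat. In simulated data on 12180 genes, every gene was given the same spread between libraries, a biological coefficient of variation of 0.327. There, 25% of 100 genes changed 2-fold and 95% of 100 changed 4-fold were called in the line comparison. Real genes differ in spread, so these shares do not give how often a real gene would be called. Library depth (4528513 to 7604581 counts) sets the floor: 3 counts per library are 0.416 CPM in RT112 and 0.529 CPM in SCaBER on average, and intervals of ratios (95%, exact) cover counting error only. No label says that the replicates were separate cultures, so that p-values measure the spread between these libraries, which may be technical. The labels call the replicate number an experiment batch but do not say that a batch spanned both lines. Deviations from the line means correlated with r from -0.0313 to 0.0713 between libraries of the same number and from -0.106 to 0.0654 between the others. DESeq2 1.42.0, RLE factors, library totals, a filter of 1 count, TPM with limma on log2(TPM + 1), batch and siRNA terms or subsets and leaving out each library were the alternatives. Tables and figures used Python 3.11.15 with pandas 2.3.3, NumPy 2.4.6 and SciPy 1.17.1.

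The comparison, its 42 gene lists and the rule for named genes were chosen with earlier results of these data known, so that lists are described and not tested. The rule took FOXA1, the 10 genes furthest apart per direction at 50 CPM or more without overlap, the 5 most abundant genes per line that the other lacked, and from each list up to 6 members furthest apart with the members that define it. Other members, the neighbours on chromosomes and the promoters shown were chosen after their values were seen. Genes of the Y chromosome were not named. Some genes of these lists are not reported here.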

Additional observations from a re-analysis of the deposited data

Results flagged for a closer look

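Among the genes named above, 45 of 520 groups of 4 libraries held 1 library far from the other 3 by Dixon's test at 95%, where chance gives about 1 in 20 groups. Values are CPM. SCaBER siControl.1 replicate 2 stood apart as the highest for AJUBA (138), ANXA3 (118), BTG2 (11.4), CSTB (327), CTGF (26.0), CYR61 (248), ETV4 (20.9), HES1 (73.3), ICAM1 (33.7), IFI27 (119), IL6ST (249), MAGEA3 (20.1), PLAU (217) and SPINT2 (297) and as the lowest for CAVIN1 (1549) and KLF5 (78.1). SCaBER siControl.1 replicate 1 was set apart as the highest for CIITA (17.6), HEY1 (2.16), IFIH1 (102), ITGB4 (220.3), JUND (338), KRT17 (1784) and PSCA (1.498) and as the lowest for AKR1C3 (0.666) and F3 (228). RT112 siControl.2 replicate 1 lay apart as the highest for DUSP6 (109.6) and TPM2 (7.85) and as the lowest for CLDN4 (281), ID1 (388), LAMA5 (172) and YAP1 (38.9). RT112 siControl.1 replicate 2 stood apart as the highest for METTL7A (157) and PLIN3 (165) and as the lowest for COL17A1 (4.83) and IRF9 (0.453). SCaBER siControl.2 replicate 2 was set apart as the highest for COL4A1 (1.32), DNTTIP2 (824), HOXB8 (1.77) and RELB (86.1). RT112 siControl.1 replicate 1 lay apart as the highest for COL7A1 (12.1), EREG (1.97) and PWP2 (0.657). SCaBER siControl.2 replicate 1 stood apart as the highest for KLHL9 (15.6) and as the lowest for KRT81 (1279). RT112 siControl.2 replicate 2 was set apart as the highest for DKK3 (2.50). For COL4A1, DKK3, EREG, HEY1, HOXB8, PSCA and PWP2 it was the only library of its line with a count.

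For 9 named genes the line difference with siControl.2 minus that with siControl.1 passed the test of the interaction (edgeR, adjusted over all genes). On the log2 scale it was AREG 2.29 (adjusted p = 0.0362), CAV1 1.26 (adjusted p = 0.045), KRT19 4.37 (adjusted p = 0.0312), KRT6A 2.97 (adjusted p = 0.0202), MYCL -5.71 (adjusted p = 0.0299), MYL9 2.59 (adjusted p = 0.0276), PTGES -1.46 (adjusted p = 0.0305), THBS1 2.02 (adjusted p = 0.0305) and ZBED2 3.45 (adjusted p = 0.0202). Positive values mean that the difference leaned more to RT112 with siControl.2.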

How the results depend on the processing

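The count of called genes, 5341, was 5265 with the replicate block (2579 higher in RT112 and 2686 in SCaBER), 5659 with the replicate block and the control siRNA as terms, 6336 with DESeq2 and 4962 to 5565 when 1 library was left out (2349 to 2748 higher in RT112 and 2492 to 2817 in SCaBER). The replicate block changed the call of no gene named above. Batch 1 alone gave 3620 (1702 higher in RT112), batch 2 alone 3050 (1409 and 1641), the siControl.1 libraries alone 3859 and the siControl.2 libraries alone 4961. Limma on TPM put 1757 genes higher in RT112 and 4381 in SCaBER. That was 28.6% of calls on the RT112 side against 48.9%, with the median of all genes at -0.32. The TPM fit left 10 lists with a median above 0, fewer than the main fit. With each library's median TPM set to 0, an alternative chosen after seeing the data, the split was 2807 to 2801. Among the list medians that changed sign under limma on TPM were those of NRF2 targets (-0.20) and of endothelial and muscle markers (-0.18). The difference of ESRP1 (-0.36) also changed sign under limma on TPM, and ZBED2 was at 0.30 in the siControl.2 libraries alone. The interaction with the control siRNA was called for 174 genes with a filter of 1 count and for 25 with the replicate block. Leaving out 1 library ended the calls for DUSP4, KRT16, KRT80, LAPTM5, LGALS3BP, NECTIN4 and ZBED2: without SCaBER siControl.1 replicate 1, DUSP4 was at 0.68 (edgeR, adjusted p = 0.0792), KRT16 at 0.81 (0.0969), KRT80 at -1.01 (0.0518) and ZBED2 at -1.27 (0.0857), without SCaBER siControl.2 replicate 2, LAPTM5 was at -1.67 (0.071) and LGALS3BP at 0.40 (0.0643), and without RT112 siControl.1 replicate 1, NECTIN4 was at 0.84 (0.0599). CDH1 passed with DESeq2, RLE factors and library totals, among others. Across the alternatives, 33 of 924 list counts and 74 of 924 list medians moved beyond their limits, and the cause was not tested. VIM and GRHL3 gave too few counts for a test, as did ALDOA, and whether depth sets this was not tested.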

Other observations

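Other runs of 15 neighbouring tested genes also lay to 1 side. On the RT112 side were chr19:36140066-37543333, with a median log2 difference of 1.97 and 7 genes higher in RT112 and 0 in SCaBER, and chr19:14514769-15697174, with 2.02 and 9 against 0. On the SCaBER side were chr1:100345001-109076003, with -1.69 and 10 genes higher in SCaBER, and chr7:27100354-28825894, the HOXA cluster and its neighbours, with -1.65 and 9 higher in SCaBER against 1 in RT112. These runs were chosen after all windows had been seen.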
